A study of Homo sapiens with 1 sample.

Results

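To describe which accessible regions far from promoters carried an AP-1 site, distal ATAC-seq peaks of 786-O cells were divided by the sequence at their summits. A member was an autosomal peak whose summit lay more than 1 kb from every annotated transcription start site (TSS) and had the exact 7-base AP-1 element, TGACTCA or TGAGTCA, whole within 50 bp of the summit in hg38. These letters are the same element read on either strand. Of 65875 distal autosomal peaks, 12044 (18.3%; exact 95% interval, 17.99 to 18.6%) were members, and 53831 had no such site. The whole list held 88676 peaks. 786-O is an established line of clear cell renal carcinoma, and the only library analysed here came from cells carrying an empty vector, the control for DPF3a overexpression. The label says empty vector while the peak names carry a WT tag, and the label was used. There was 1 library and no replicate, so every value describes that library, no test between conditions was possible, and intervals cover counting error only. Peaks of 1 library are not replicates.

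AP-1 is a family of dimers of JUN, FOS, ATF and MAF proteins, which bind DNA through a basic region next to a leucine zipper. JUN and FOS dimers recognise the element also called the TPA response element, named after the phorbol ester that activates it. They respond to growth factors, stress and adhesion, and in many cultured and tumour cells their sites lie mostly in enhancers rather than promoters. ATAC-seq inserts adapters into open DNA with the Tn5 transposase, so it reports that a site was accessible and not which protein was bound. A site accessible in more cells and a site more accessible in each cell cannot be told apart.

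The windows of highest fold show where the element lay in strongly accessible regions. Each runs from 50 bp before to 50 bp after a summit, written from the plus strand of hg38 with the AP-1 elements in capitals. The first 5 are the members of highest fold outside a chromosome whose sequence is not printed, and the last is the strongest member that also held the ETS motif, GGAAGT. The ESYT2 window is chr7:158818670-158818770, the PRKAG2 window chr7:151754309-151754409, the CREB3L2 window chr7:137882351-137882451, the AMOTL2 window chr3:134427530-134427630, the ARSI window chr5:150317342-150317442 and the PFKFB3 window chr10:6275345-6275445.
ESYT2: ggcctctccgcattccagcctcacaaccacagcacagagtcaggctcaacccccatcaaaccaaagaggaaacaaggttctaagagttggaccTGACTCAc
PRKAG2: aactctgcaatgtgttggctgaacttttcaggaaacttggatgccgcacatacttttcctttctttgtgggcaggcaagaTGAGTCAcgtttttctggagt
CREB3L2: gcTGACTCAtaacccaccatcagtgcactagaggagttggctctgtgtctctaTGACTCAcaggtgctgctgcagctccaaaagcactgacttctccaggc
AMOTL2: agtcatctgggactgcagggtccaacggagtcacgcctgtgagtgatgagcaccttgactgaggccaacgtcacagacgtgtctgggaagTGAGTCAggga
ARSI: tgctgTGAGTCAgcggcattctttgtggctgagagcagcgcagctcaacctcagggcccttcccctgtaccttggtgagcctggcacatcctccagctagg
PFKFB3: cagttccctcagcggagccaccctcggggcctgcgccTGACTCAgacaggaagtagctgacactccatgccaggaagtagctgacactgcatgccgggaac

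The summits of these regions need not coincide with the element. The peak in an intron of ESYT2, an endoplasmic reticulum tether protein, had the highest fold of all members, 143.8 (exact Poisson interval, 127.4 to 161.6), and its element was centred 46 bp from the summit. The same window was also the strongest with a RUNX motif, TGTGGT, and the strongest with a TEAD motif, CATTCC. The peak in an intron of PRKAG2, a regulatory subunit of AMP-activated kinase, had a fold of 112.3 and its element 33 bp from the summit. An intron of CREB3L2, itself a bZIP transcription factor gene, held 2 elements, at 45 bp to the left and 6 bp to the right, at a fold of 110.3. The intergenic peak whose nearest protein-coding TSS was that of AMOTL2, a junction protein in the Hippo pathway, lay 52101 bp from it and had a fold of 109.8. A peak in an intron of ARSI, a sulfatase gene, had a fold of 109.2. The PFKFB3 peak, 51229 bp from the TSS of this regulator of glycolysis, had a fold of 88.1 with the element 10 bp left of the summit.

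A second set of windows is shown because each held 4 elements, the most found in any window. They are chr2:81658433-81658533 (nearest protein-coding gene CTNNA2), chr5:43315483-43315583 (HMGCS1), chr4:72112694-72112794 in an intron of NPFFR2, and chr5:19531804-19531904 in an intron of CDH18.
CTNNA2: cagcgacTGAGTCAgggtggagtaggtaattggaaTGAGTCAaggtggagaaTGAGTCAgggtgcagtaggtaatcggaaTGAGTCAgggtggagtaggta
HMGCS1: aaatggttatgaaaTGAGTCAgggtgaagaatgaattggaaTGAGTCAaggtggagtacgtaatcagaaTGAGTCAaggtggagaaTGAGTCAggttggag
NPFFR2: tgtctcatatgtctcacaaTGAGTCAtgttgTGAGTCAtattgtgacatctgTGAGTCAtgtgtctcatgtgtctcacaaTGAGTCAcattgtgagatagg
CDH18: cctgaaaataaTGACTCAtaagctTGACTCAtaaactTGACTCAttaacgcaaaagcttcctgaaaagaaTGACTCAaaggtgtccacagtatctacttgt

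The CTNNA2 and HMGCS1 windows shared sequence with each other, with a longest identical stretch of 29 bases on either strand. The other pairs shared 9 or 11 bases. The folds of the 4 windows were 44.3, 37.1, 21.1 and 11.3 in the order printed. The CTNNA2 and HMGCS1 windows are therefore not independent examples of several elements in a window. The CTNNA2 gene was the nearest protein-coding gene at 1069144 bp, while a TSS of some other transcript lay 8245 bp away.

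The element was far more frequent at distal summits than beside them. Windows of the same width 1 kb to either side, outside all peaks, held it in 1605 of 120420 cases (1.33%), which gave a ratio of 13.7 (95% interval, 13.03 to 14.4). Among 8176 7-base words, each counted with its reverse complement, the AP-1 element had the highest ratio of distal summits to flanks. Of the next 9 words, 6 overlapped it by 6 bases, led by ATGACTC with a ratio of 8.94, and the best word that did not was CGGACCG with 5.18, found at only 68 summits. Summits within 1 kb of a TSS held the element in 1451 of 20364 cases (7.13%), so the distal share was 2.57 times as high (2.44 to 2.70). The flanks of these promoter-near summits held it in 1.14% of cases, a summit-to-flank ratio of 6.24 (5.57 to 6.99). Median GC content was 61.4% in the promoter-near windows and 47.5% in the distal ones, and its part was not tested. At the edge of the rule the share was 14.1% for summits up to 0.1 kb outside the 1 kb limit and 13.8% for those up to 0.1 kb inside it.

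Single-base changes to the element lowered its ratio by unequal amounts. Changing the central base to A or T, as in TGAATCA, left a ratio of 4.04 (3.82 to 4.27), and TGACTAA and TGACTCG had 4.24 and 4.55. A change of the second base to T, as in TTACTCA, gave 2.70. Changes at the third position gave the lowest ratios, all under 1. TGCCTCA had a ratio of 0.621, TGGCTCA one of 0.683 and TGTCTCA one of 0.816. These words are matches of letters and do not show which factor, if any, bound them.

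The bases just outside the 7 also differed between summits and flanks. Read on the strand with C at the centre, the form TTGACTCAA, with T before and A after, made up 0.602% of 12792 elements at summits and 5.69% of 1617 in flanks, a ratio of 0.106 (0.0785 to 0.143). Elements with T before or A after on 1 side made up 15.3% against 35.7%, a ratio of 0.429 (0.397 to 0.463), and those with neither 84.1% against 58.6%, a ratio of 1.43 (1.38 to 1.495). Counted per window, elements with neither were 20.7 times as dense at summits as in flanks, whereas TTGACTCAA was 1.53 times as dense. The most favoured forms were ATGACTCAC, with a ratio of 2.24, and the symmetric ATGACTCAT, with 2.14. CTGACTCAG, also symmetric and the commonest form in flanks, had 0.693 (0.592 to 0.812). In all, 8 of the 16 forms had intervals above 1 and 8 below.

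The fold of a peak differed between forms of the element. The median fold was 10.8 (10.3 to 11.3) for peaks with ATGACTCAT and 12.9 (12.4 to 13.9) for those with GTGACTCAG. Peaks with TTGACTCAA had a median of 9.28 (6.70 to 10.3), as low as that of all distal peaks without an element. The longer form TGACTCAGC, which resembles the sites of MAF and NFE2-type dimers, was 9.27% of summit elements and 7.42% of flank elements, a ratio of 1.25 (1.04 to 1.496), with a median fold of 12.9. The ETS core lay directly against an element in 84 summit cases and 4 flank cases, a ratio of 2.65 whose interval of 0.975 to 7.23 covered 1.

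**Figure D1:**
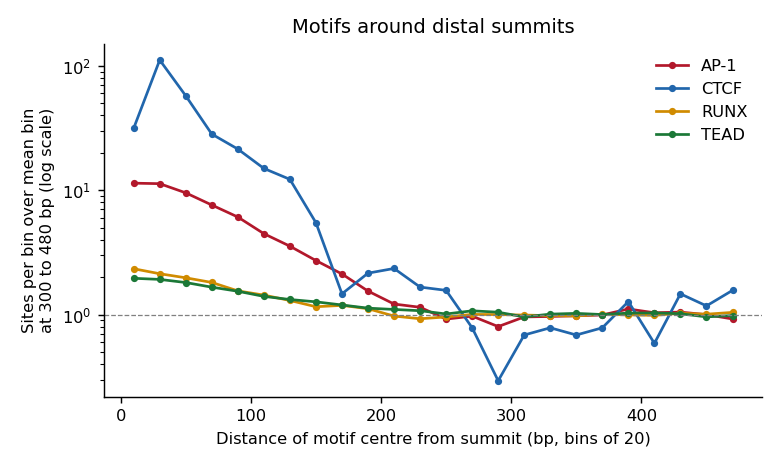
Number of motif occurrences at distal summits per 20 bp bin of distance from the summit (x axis, bp), divided by the mean bin at 300 to 480 bp (y axis, log scale), for the AP-1, CTCF, RUNX and TEAD motifs. The AP-1 line is level over the first 40 bp and is near 1 past 240 bp, whereas CTCF peaks at 20 to 40 bp. CTCF bins beyond 160 bp hold 24 sites or fewer.

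By counts within 10 and 20 bp of the summit, the element lay slightly closer to it than an even spread over the window. Of 12792 elements within it, 45.04% (44.2 to 45.9%) were centred within 20 bp of the summit, where an even spread would put 43.2%. Within 10 bp lay 23.9% (23.2 to 24.7%) against an even 22.1%, and the median distance was 23 bp. Within 5 bp there was no excess, with 11.3% (10.8 to 11.9%) against an even 11.6%. Their density was 83.0 per 1000 summits in the bin from 0 to 20 bp, 82.2 from 20 to 40 bp, 44.3 from 80 to 100 bp and 8.85 from 200 to 220 bp. The CTCF motif behaved differently around the same summits, with 322 occurrences in the first bin and 1139 in the second. RUNX and TEAD motifs were densest in the first bin, at 2.34 and 1.96 times their level at 300 to 480 bp, against 11.4 times for AP-1. Tn5 cuts and fragment extension both set where a summit falls, and their part was not tested.

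The width of the window decided membership for many peaks with an element nearby. Peaks whose nearest element was centred 38 to 47 bp from the summit, just inside, had a median fold of 11.3, and those at 48 to 57 bp, just outside, had 11.9. The median fold lay between 11.3 and 11.9 for nearest elements from 48 to 150 bp away and was 9.79 beyond that, up to 250 bp. The comparison peaks therefore include many with an element that the rule did not reach.

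Members had higher folds than the other distal peaks. Fold is the summit pileup plus 1 over a genome-wide background plus 1, so that 1 read adds 0.515. The median was 11.3 (interquartile range, 7.21 to 21.6) for members and 9.28 (6.18 to 16.5) for the others, a ratio of 1.22 (1.22 to 1.28), at median pileups of 21 and 17. The ranges overlapped widely, from 5.15 to 143.8 in members and to 155.1 in the others. The median was higher for members on 22 of 22 autosomes, with separate intervals on 20, and the ratio ran from 1.11 to 1.39. Against comparison peaks with no element within 150 bp, a choice made after seeing the data, the ratio was 1.29.

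Read the other way, the share of members was higher among peaks of higher fold. It was 13.8% (13.2 to 14.4%) among distal peaks with folds of 5.15 to 5.67 and 25.8% (24.7 to 26.8%) among those of 30.9 or more. In the flanks of the same peaks the share lay between 0.936% and 1.54%, and it was lowest in the highest bin. Median GC content of the windows was 46.5% in the lowest bin and 49.5% in the highest, and 47.5% in both members and other distal peaks. Of the 100 distal peaks of highest fold, 29 were members.

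**Figure D2:**
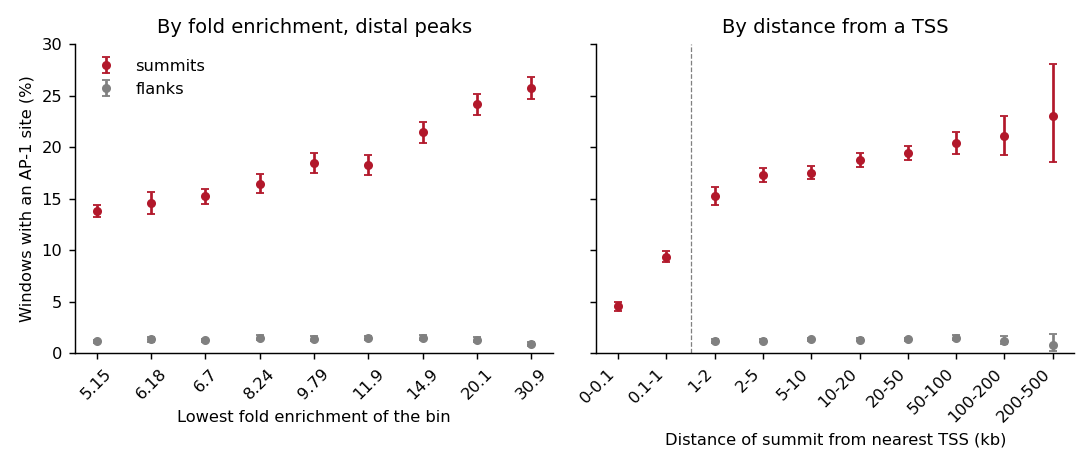
Share of windows reaching 50 bp to each side with an AP-1 element (y axis, %) by fold enrichment of distal peaks in 9 bins (left) and by distance from the nearest TSS in kb (right), with exact 95% intervals; grey points are windows 1 kb to either side. The share at summits goes from 13.8% to 25.8% over the fold bins and from 4.56% to 23.1% with distance, and the dashed line marks the 1 kb limit of the rule.

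The number of elements went with fold as well. A single element was present in 11331 members (94.1%), 2 in 683 (5.67%), 3 in 25 and 4 in 5. Given one element, a further one was 7.31 times as frequent (4.23 to 12.6) at summits as in flanks, where 13 of 1605 windows had 2 or more. The ratio for having any element was higher, at 13.7, so clustering beyond the general frequency at summits was not shown. Members with 1 element had a median fold of 11.3 and those with 2 of 15.5 (14.4 to 16.5). With 3 elements the median was 12.9 (8.76 to 15.97) over 25 peaks, an interval that met both. Exact copies of this word cannot overlap, so 7 bp centre to centre was the shortest spacing possible. Between neighbouring elements in a window, 389 of 748 spacings (52.0%) were under 30 bp. The commonest spacing was 17 bp, with 28 cases against a mean of 8.5 per bp, so no single spacing held more than a small part. The CTNNA2 and HMGCS1 windows, which share sequence, each held this spacing. How many of the 28 cases come from related sequence was not tested.

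The share of members also depended on distance from a TSS, from 15.2% at 1 to 2 kb, through 18.7% at 10 to 20 kb, to 23.1% (18.6 to 28.1%) at 200 to 500 kb. Next to the TSS, within 0.1 kb, it was 4.56%. The flank share was 1.20% (0.99994 to 1.43%) at 1 to 2 kb, 1.37% at 20 to 50 kb, 1.51% (1.28 to 1.77%) at 50 to 100 kb, 1.25% at 100 to 200 kb and 0.817% at 200 to 500 kb, the last from 5 windows. The ratio of summits to flanks was 12.7 (10.5 to 15.3) at 1 to 2 kb and 13.5 (11.4 to 15.999) at 50 to 100 kb, intervals that overlap, so a difference relative to flanks was not shown over this range. At 200 to 500 kb it was 28.2 (11.5 to 69.1). Distal peaks were also put in 3 groups of similar size by fold. In each, the summit share was higher beyond 50 kb than at 1 to 2 kb. The lowest group had 10.8% (9.50 to 12.3%) at 1 to 2 kb and 16.7% (15.2 to 18.3%) beyond 50 kb. The highest had 21.6% (19.8 to 23.5%) and 25.1% (23.4 to 26.9%), intervals that overlap slightly, so a difference was not shown there. The median distance was 12311 bp for members and 10752 bp for the other distal peaks. Within 0.1 kb of a TSS, outside the rule, peaks with the element had a median fold of 18.3 (16.5 to 20.1), below the 22.2 (21.6 to 22.7) of those without.

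Members lay in the same kinds of place as other distal peaks, with 1 exception. Introns held 60.8% of members and 60.4% of the others, and intergenic sequence 35.1% and 34.4%. Exons held 4.05% and 5.15%, a ratio of 0.787 (0.716 to 0.865). The nearest distal neighbour was a member for 18.6% of members and 18.1% of the others, a ratio of 1.02 (0.981 to 1.07) whose interval covered 1. Of 6 classes of distance to that neighbour, the one from 5 to 10 kb had an interval above 1, with 21.1% against 18.8% and a ratio of 1.12 (1.03 to 1.23). The share per autosome ranged from 16.5% on chromosome 19 to 20.9% on chromosome 13. Chromosomes 5, 7 and 8 held 18.9% of all members and 55 of the 100 members of highest fold, and the copy number of these chromosomes was not tested. Of their distal peaks, 17.6%, 17.1% and 18.9% were members, near the 18.3% of all distal peaks. The same count for the highest folds without the element is not given, so the 55 cannot be called particular to members.

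**Figure D3:**
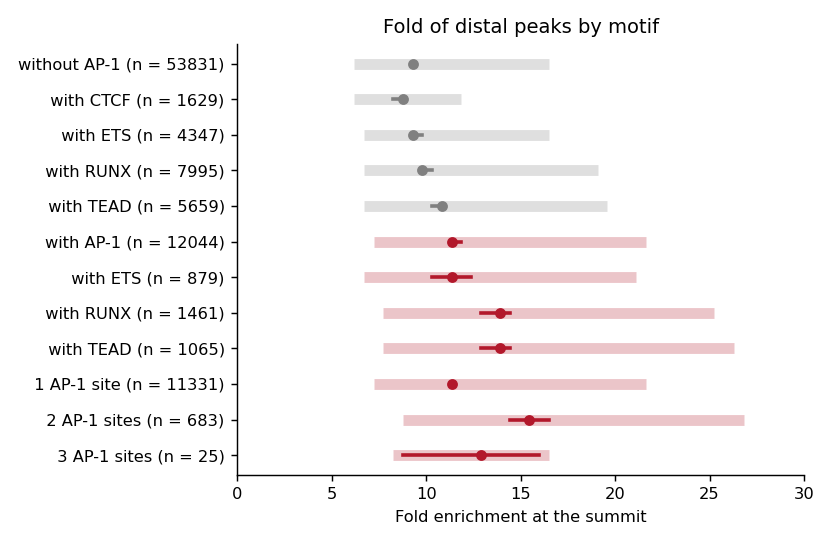
Median fold enrichment of distal peaks (points) with order-statistic 95% intervals (dark lines) and interquartile ranges (pale bars), without (grey) and with (red) an AP-1 element, by other motif and by number of elements. The medians with an AP-1 element and a RUNX or TEAD motif are both 13.9, against 9.79 and 10.8 without the element.

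Other motifs in the window are those of factors often named beside AP-1 at enhancers. RUNX proteins and the TEAD factors of the Hippo pathway are known to share enhancers with AP-1, and CTCF marks insulators and loop ends. A RUNX motif was present in 12.1% of members and 14.9% of the other distal peaks, a TEAD motif in 8.84% and 10.5%, and an ETS motif in 7.30% and 8.08%. In the flanks of distal summits these shares were 6.97%, 5.38% and 5.27%. A share counts against members, because bases taken by the AP-1 element cannot hold another motif. The count per position left free, a measure added after seeing the data, removes this, and on it a scrambled AP-1 sequence, GACATCT, had a ratio of 1.03 (0.858 to 1.23) of members to other distal peaks.

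Per free position, 1 motif had an interval above 1 and 7 had intervals below it. Of the 21 sequences searched, the scrambled control included, 13 had intervals that covered 1, among them TEAD with a ratio of 0.9496 (0.8911 to 1.01) and ETS with 1.03 (0.961 to 1.11). RUNX had a ratio of 0.906 (0.859 to 0.957). The motif above 1 was that of bHLH factors, CAGCTG, at 1.09 (1.01 to 1.17). Its ratio of shares was 0.959 (0.892 to 1.03), and the intervals were not adjusted for the 21 sequences searched. The largest difference was for CTCF, found in 27 members (0.224%) and 1629 other distal peaks (3.03%), a ratio of shares of 0.0741. Per free position its ratio was 0.0921 (0.0630 to 0.135). HNF1, a kidney and liver lineage factor, had 0.376 (0.239 to 0.591), and SP/KLF, with the GC-rich GGGCGG, 0.582 (0.508 to 0.666). The core of the HIF element, ACGTG, had 0.878 (0.815 to 0.946), the ZEB and SNAIL E-box CAGGTG 0.881 (0.814 to 0.954), and NF-κB 0.825 (0.709 to 0.961). The flank shares were 0.0316% for CTCF, 0.113% for HNF1, 1.74% for SP/KLF, 4.33% for HIF, 9.58% for the ZEB E-box and 1.14% for NF-κB.

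The remaining motifs, like those above, were searched by exact letters on both strands. They were CRE (TGACGTCA), C/EBP (TTGCNNAA), NFI (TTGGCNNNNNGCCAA), SMAD (GTCTAGAC), STAT (TTCCNGGAA) and the steroid receptor element (ACANNNTGT). The motif searched for HNF1 was GTTAATNATT. The PAX motif was GCGTGAC. The forkhead motif was TGTTTAC. Those of GATA and NFAT factors, AGATAA for the former and for the latter TGGAAA, were also searched. Occurrences that overlapped an AP-1 element were left out. The GATA ratio was 1.03 and the C/EBP ratio 1.06, each with an interval that covered 1. The CRE, a related bZIP site, occurred beside the element in 10 members, too few to separate its ratio of 0.613 (0.318 to 1.18) from 1. NFI with 4 occurrences in members and SMAD with 5 were rarer still.

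**Figure D4:**
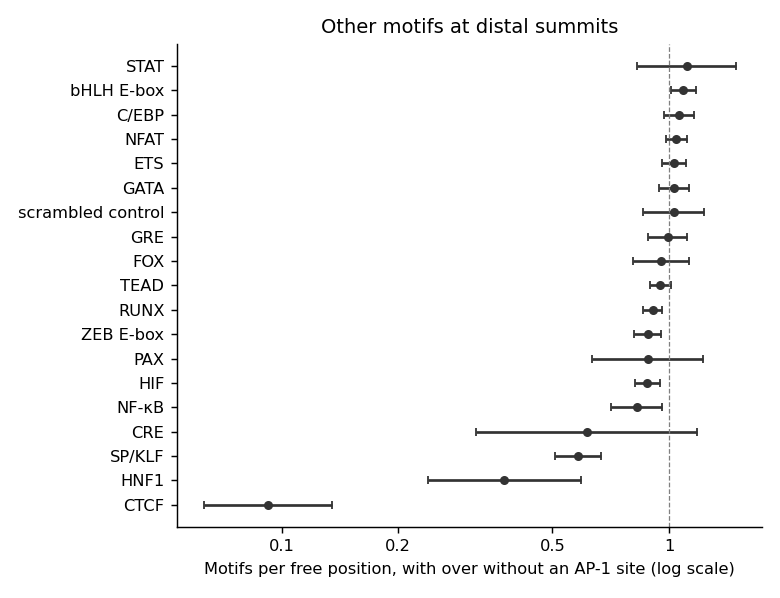
Occurrences of each motif per free position within 50 bp of the summit, members over other distal peaks (x axis, log scale), with 95% intervals, for the 19 motifs with 10 or more occurrences in members. SP/KLF, HNF1 and CTCF lie lowest, at 0.582, 0.376 and 0.0921.

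Peaks that had both the element and another motif had higher folds in part of the cases. With RUNX the median was 13.9 (12.9 to 14.4) and with TEAD 13.9 (12.9 to 14.4), above that of all members. With ETS it was 11.3 (10.3 to 12.4), the same as all members. Members with none of these 3 motifs had a median of 10.8 and those with 1 of them 12.9 (12.4 to 13.4). Among other distal peaks the corresponding medians were 8.76 and 9.79. Distal peaks with CTCF and no element had a median of 8.76, against 9.28 for all distal peaks without it. The commonest gap between the element and a TEAD motif was 14 bp, with 53 cases or 4.14 per 1000 elements, against a mean of 2.06 per bp at 10 to 19 bp. For RUNX it was also 14 bp, with 53 cases, against 2.92 per bp at 10 to 19 bp. These gaps were picked as the highest of many, so they are a description.

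Members were assigned to the nearest protein-coding TSS, which is a position and does not show regulation. Highest folds given for a gene are those of its members. Distal peaks without the element can be higher, as at NDRG1 with up to 155.1, or lower, as at FOSL2 with up to 56.7. Of 19103 autosomal protein-coding genes, 5726 (30.0%) had at least 1 member, 519 had 5 or more and 43 had 10 or more. The most were at TENM4, a teneurin of the cell surface, with 19 of its 70 distal peaks. MYC, the growth-promoting transcription factor, had 18 of 83, with a highest fold of 94.3. KAZN had 17 of 61, ID2, an inhibitor of bHLH factors, 16 of 49, RUNX1 16 of 67, and BRINP1 16 of 57. KIRREL3, a nephrin-like adhesion protein, had 15 of 36, and HAS2, which makes hyaluronan, 15 of 45. TNS3, a tensin of focal adhesions, had 14 of 64 and TRPS1, a GATA-type repressor, 14 of 40. These genes were taken for their high counts, so their shares are a description. A gene with more distal peaks has more chances of a member, and the part of gaps between genes was not tested.

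**Figure D5:**
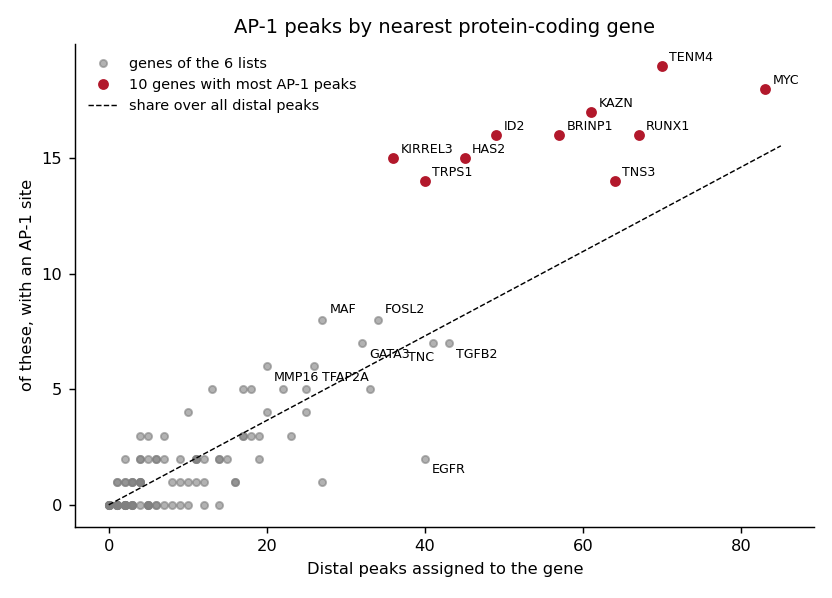
Distal peaks assigned to a gene (x axis) and how many of them were members (y axis), for the 10 genes with most members (red) and the genes of 6 lists (grey); the dashed line is the 18.3% over all distal peaks. Most listed genes lie near the line, with EGFR at 2 of 40 and TENM4 at 19 of 70.

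The genes of the AP-1 subunits themselves had 27 members among 120 distal peaks (22.5%; 15.4 to 31.02%), and the interval covered the 18.3% of all distal peaks. FOSL2, a FOS-family partner of JUN, had 8 of 34, the strongest in its own intron 13965 bp from the TSS with a fold of 80.9 (68.8 to 94.6). MAF, a large MAF protein, also had 8, of 27, the strongest 201174 bp upstream with 58.7. JUN had 5 of 18, the strongest 64921 bp upstream with 78.3 (66.4 to 91.8). ATF3, a stress-induced partner, had 2 of 9, the strongest at a fold of 58.7. MAFK and BATF3 had 2 each. The other 12 of 18 genes, JUNB, JUND, FOS, FOSB, FOSL1, ATF2, ATF7, BATF, BATF2, JDP2, MAFF and MAFG, had none. FOS had 7 distal peaks, and the others had 3 or fewer, so few of these genes had many peaks in which an element could be found.

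Textbook AP-1 target genes did not have a higher share than other distal peaks, with 48 of 303 (15.8%; 11.9 to 20.4%). Of the 32 genes, 21 had at least 1 member, against 30.0% of all genes. This count was not adjusted for distal peaks per gene, and a gene with more of them has more chances of a member. It was not particular to this list, since 8 of 14 HIF target genes and 10 of 16 renal lineage genes also had a member. TNC, a matrix protein, had 7 of 41, MET, the hepatocyte growth factor receptor, 5 of 25 with a highest fold of 52.0, LAMA3, a laminin chain, 5 of 17, and CXCL8, a chemokine, 3 of 5 with a highest fold of 26.8. EGFR, named here after its values were seen, had 2 of 40, with folds up to 10.8, while a distal peak of it without the element reached 88.6.

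The other lists gave shares whose intervals also covered 18.3%. Target genes of TEAD and YAP had 31 of 175 distal peaks (17.7%; 12.4 to 24.2%), and 9 of 12 genes had a member. TGFB2, a growth factor, led them with 7 of 43 and a fold of up to 80.4, followed by CRIM1 with 5 of 33, F3, the tissue factor gene, with 5 of 13, and THBS1, a matrix glycoprotein, with 4 of 20. HIF target genes, whose activity was not measured here, had 21 of 121 (17.4%; 11.1 to 25.3%). SLC2A1, a glucose transporter, had 5 of 22, EGLN3, a prolyl hydroxylase, 4 of 25, NDRG1 3 of 19 with a highest fold of 100.996, and VEGFA 3 of 18. Transcription factor genes of the renal lineage had 26 of 184 (14.1%; 9.44 to 20.02%), with GATA3 at 7 of 32, TFAP2A at 6 of 26, EMX2 at 4 of 10 and SALL1 at 2 of 11. The cell movement genes named by the study had 15 of 83 (18.1%; 10.5 to 28.05%), led by MMP16, a membrane metalloprotease, with 6 of 20, and COL6A3, ZEB1 and WNT7B with 2 each.

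The 10 members of highest fold ranged from 107.2 to 143.8. The strongest of the 4 on chromosome 8 had a fold of 124.7. It lay 2810 bp upstream of the TSS of TRIM55, in an intron of a gene that is not protein-coding. The others were an intergenic peak near EFR3A at 119.5, a peak in an intron of RIMS2 at 119.0 and an intergenic peak near EIF3H at 108.7. The tenth was in an intron of CLDN4, a tight junction protein gene, with 107.2. Neighbours in this order had overlapping counting intervals, so their order is not resolved.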

How the data were processed

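ATAC-seq of 1 library of 786-O cells with an empty vector was analysed as a peak list. According to the study's methods and the labels, the authors used fastp for trimming and Bowtie2 2.3.4.3 for alignment to hg38, removed low-quality, mitochondrial and duplicate reads, and called peaks with MACS2 2.2.6 without a local background. A Tn5 shift of read ends is not given in the sources used here. The deposited fold is a ratio of summit pileup plus 1 to background plus 1, from which whole pileups of 9 to 300 were recovered. The total number of reads is unknown. The deposited score and the −log10 p-value and −log10 q-value were used for filters or not at all.

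Autosomal summits were compared with TSSs of GENCODE release 44. Either strand of hg38 was searched for motifs within 50 bp of summits and in windows 1 kb to each side lying in no peak. Shares carry exact (Clopper-Pearson) 95% intervals, ratios other than those of medians log-scale intervals, medians order-statistic intervals and folds exact Poisson intervals. The range beside a ratio of medians divides opposite ends of the 2 median intervals and is not a 95% interval. Named were the 10 members of highest fold, the 5 with most elements, the 10 genes with most members, the 4 leading genes of each list and AP-1 subunit genes without a member. Ties went to the higher fold. A gene of the AP-1 subunit list and a window with 4 elements are not reported here, and list totals omit that gene. Alternatives were a higher score, other TSS distances, protein-coding TSSs, other windows, fewer chromosomes, a 9-base site, and standardisation to GC or fold. The members and lists were chosen with earlier results of these data known. Repeat masking was not used here, since the sequence carried no masking. Functions, written in Python 3.11.15 (scipy 1.17.1, numpy 2.4.6, pandas 2.3.3; figures in matplotlib 3.10.9), were tested on simulated data.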

Additional observations from a re-analysis of the deposited data

Results flagged for a closer look

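Chromosome X lay outside the rule and entered no comparison above, yet its distal summits held the AP-1 element too. It was present in 328 of 1682 (19.5%; exact 95% interval, 17.6 to 21.5%), against 55 of 3183 flanking windows (1.73%), a ratio of 11.3 (8.53 to 14.9). The median fold was 10.0 with the element and 8.24 without it.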

How the results depend on the processing

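No paired analysis was possible because the data hold 1 library. Depth limits every fold, and the lowest pileup was 9. The direction that changed was width: the ratio of median widths, members over other distal peaks, was 1.05 (498 against 474 bp) but 0.987 at scores above 100 and 0.953 at scores above 200, and 1.03 and 1.09 for an element within 25 and 100 bp, so width is not reported as a difference; the cause was not tested. At scores above 100 and 200 the share of members was 20.5% and 22.4%, the ratio to flanks 14.8 and 16.8, and the fold ratio 1.19 and 1.13. At scores above 200, 43.7% of elements lay within 20 bp and 34.1% of members were intergenic. With TSS distances above 2.5 and 5 kb the share was 18.6% and 18.9% and the intergenic share 36.9% and 39.1%, and at 5 kb the distance ratio was 1.07. With protein-coding TSSs alone the distance ratio was 1.23. For elements within 25 and 100 bp the share was 9.45% and 29.8%, the ratio to flanks 15.2 and 10.7, and, by construction of the window, 90.5% and 26.5% lay within 20 bp. The fold ratio was 1.29 with the 100 bp window, 1.28 as a mean over GC deciles and 1.29 against peaks with no element within 150 bp, and ran from 1.13 to 1.29 in all. The 9-base site ATGACTCAT was in 1.94% of distal windows. The GC difference of 0 became -0.990 percentage points, 1 base of the window, at scores above 100, with protein-coding TSSs and without chromosomes 5, 7 and 8. Of 21 sequences, the scrambled control included, 21 had a share ratio under 1; under the other score, distance, window and chromosome choices 19 to 21 did, and 13 had one per free position, where ETS, GATA and NFAT were at 1.03, 1.03 and 1.04; forkhead was at 1.04 at scores above 200. The other values of the main shares, ratios and differences stayed within their interval. Ratios of single motifs moved outside theirs in 28 further cases. With elements within 25 bp, share ratios were 0.690 for RUNX, 0.683 for TEAD and 0.0299 for CTCF, against 0.817, 0.841 and 0.0741. SP/KLF was at 0.696 when standardised to GC, against 0.529.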
